A study of Mus musculus with 12 samples.

Results

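Brachial spinal motor neurons of Pbx mutant mouse embryos were compared with those of control littermates through the 62 genes that the authors listed for this comparison. These 62 genes are every row of the brachial mutant list, out of 162 different genes in the brachial and thoracic mutant lists together. Motor neurons were isolated from E12.5 embryos (a midgestation stage) of a highly mixed C57BL/6 strain by sorting cells that carried the green fluorescent reporter Hb9::GFP, which marks motor neurons and which mutants and controls both carried. The mutant libraries come from PbxMNΔ; Hb9::GFP embryos and the control libraries from littermates with Hb9::GFP, with 3 libraries of each, named A, B and C. The name PbxMNΔ denotes a Pbx deletion in motor neurons, and neither the deleted Pbx alleles nor the Cre driver is given in the labels. The series design mentions 9 pooled controls and 9 mutants without dividing them over libraries. The labels do not say whether replicate libraries stem from different embryos, so the p-values measure the spread between these libraries, which may be technical.

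Pbx proteins are homeodomain transcription factors that bind DNA together with Hox proteins and raise the selectivity with which Hox proteins choose their target genes. In the spinal cord, Hox proteins assign motor neurons to columns, and at brachial levels, which supply the forelimb, they set apart the lateral motor column of limb muscles from the median column of the axial muscles. The genes of a motor neuron fall into those that all motor neurons share, such as the enzymes of acetylcholine synthesis, and those that mark a column or a muscle pool.

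All values below are called normalized counts. They are taken as reads of a gene divided by 1 scaling factor per library. This is inferred from their even steps, as the authors headed them CPM. Triplets of values are in the order of libraries A, B and C. A log2 difference is the mean of log2(normalized count + 0.5) in mutant libraries minus that in control libraries, so it somewhat understates the change of the lowest genes. Differences were tested with limma with Benjamini-Hochberg adjustment over the 62 genes, and a gene passed at an adjusted p under 0.05. The authors selected the list on these same libraries, so a high share of passing genes follows from that choice, and the p-values describe how far the groups stand apart relative to the spread of their libraries without being independent evidence of a change. With 1 step of these values taken as 1 read, reads over the list summed to 39381 to 42907 in the mutant libraries and 47508 to 52090 in the control libraries.

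Most listed genes were lower in the mutant. Of the 62 genes, 51 fell (82.3% of the list) and 10 rose (16.1%), so that 61 passed (98.4%). The median log2 difference over the list was -0.62. Mutant and control values did not overlap for 60 genes (96.8%), and the exceptions were Slc5a7 and Nr2f2. The largest falls were in Cyp26b1, Creb5, Arhgap36, Hrk and H19, each more than 3-fold by the log2 difference, and the largest rises were in Ak5, Cpne5, Cdkn1a and Lmo7, each about 2-fold. Adjusted over the 11847 genes that the authors' p-values imply were tested, limma called 1 gene, H19 (adjusted p = 0.00949, against 4.02e-06 to 0.00489 for H19 under the other settings), and 0 of the 10 rises. The unadjusted p, which this adjustment does not alter, was under 0.05 for all 10 rises and, as the genes were selected on these libraries, adds no evidence. Without control library B, 40 genes passed, of which 32 were lower, and with all libraries put on the median listed gene, which moves each difference up by 0.56, 23 passed, 11 higher and 12 lower. Unselected genes that could serve as a neutral scale were not analysed here. In the GENCODE annotation exons of 22 of the genes overlap another gene, and since no source used here says whether counting used strand, counts such as those of Ak5, Cdh8, Cdkn1a, Cpne5, Creb5, Ebf2, Ezr, Fat1, Gas1, H19, Kcnip4, Mcc, Mecom, Nfia, Nr2f2, Orc4, Plxna4, Prox1, Tenm3, Unc5c and Zeb2 are uncertain to that extent.

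**Figure D1:**
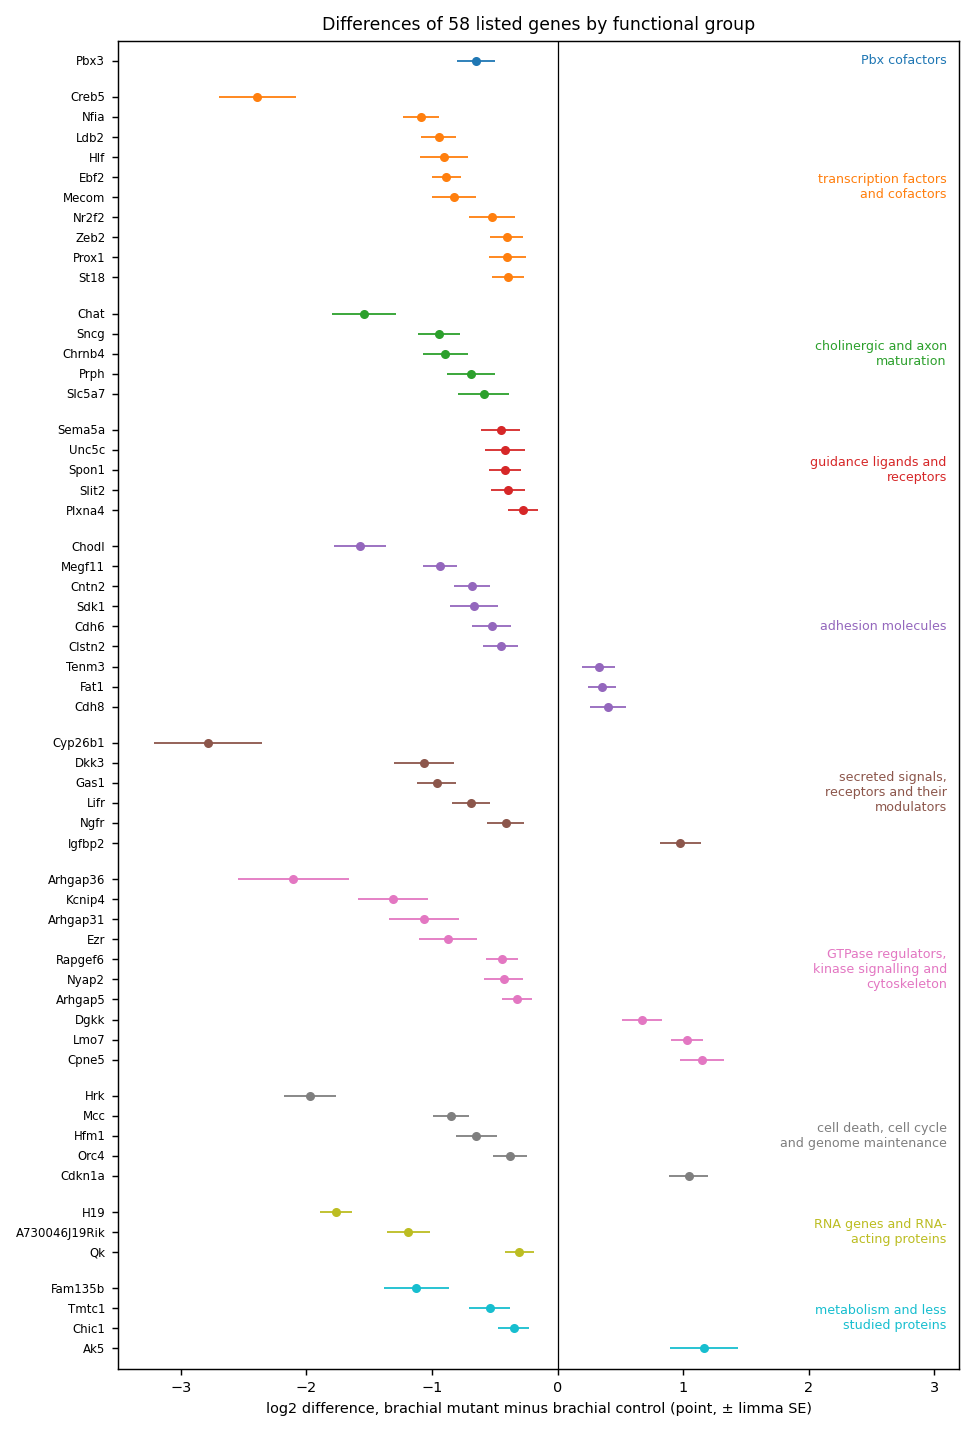
Each point is the log2 difference of 1 gene between brachial mutant and control libraries (horizontal axis, mutant minus control), the bar is ± 1 limma SE, n = 3 libraries each, and 58 genes are stacked by functional group. The differences run between -2.78 for Cyp26b1 and 1.17 for Ak5, and most points lie left of 0.

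The Pbx gene Pbx3 comes first. It was selected on these same libraries and the deleted alleles are not given, so its fall is no check of the labels. Pbx3, a homeodomain cofactor of Hox proteins, had 1979.9, 1814 and 1506 normalized counts in mutant libraries, against 2461, 2710.0 and 3121 in control libraries, and every mutant library was below every control library. It averaged 1767 ± 241 in the mutant and 2764 ± 333 in the control (SD, n = 3 each), a log2 difference of -0.65 (SE 0.15, adjusted p = 0.00646). Pbx3 thus kept most of its reads in mutant libraries. Relative to the median listed gene its log2 difference was -0.086 (adjusted p = 0.674) and did not pass, against an adjusted p of 2.31e-06 to 0.0320 for Pbx3 under the other settings, except over 11847 genes, where it was 1. Counts are per gene and include any reads outside a deleted part, so they do not measure how much functional Pbx transcript was left. Since the tissue is a pool of sorted cells, fewer cells of a type and less RNA per cell cannot be told apart, here or for the genes that follow.

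**Figure D2:**
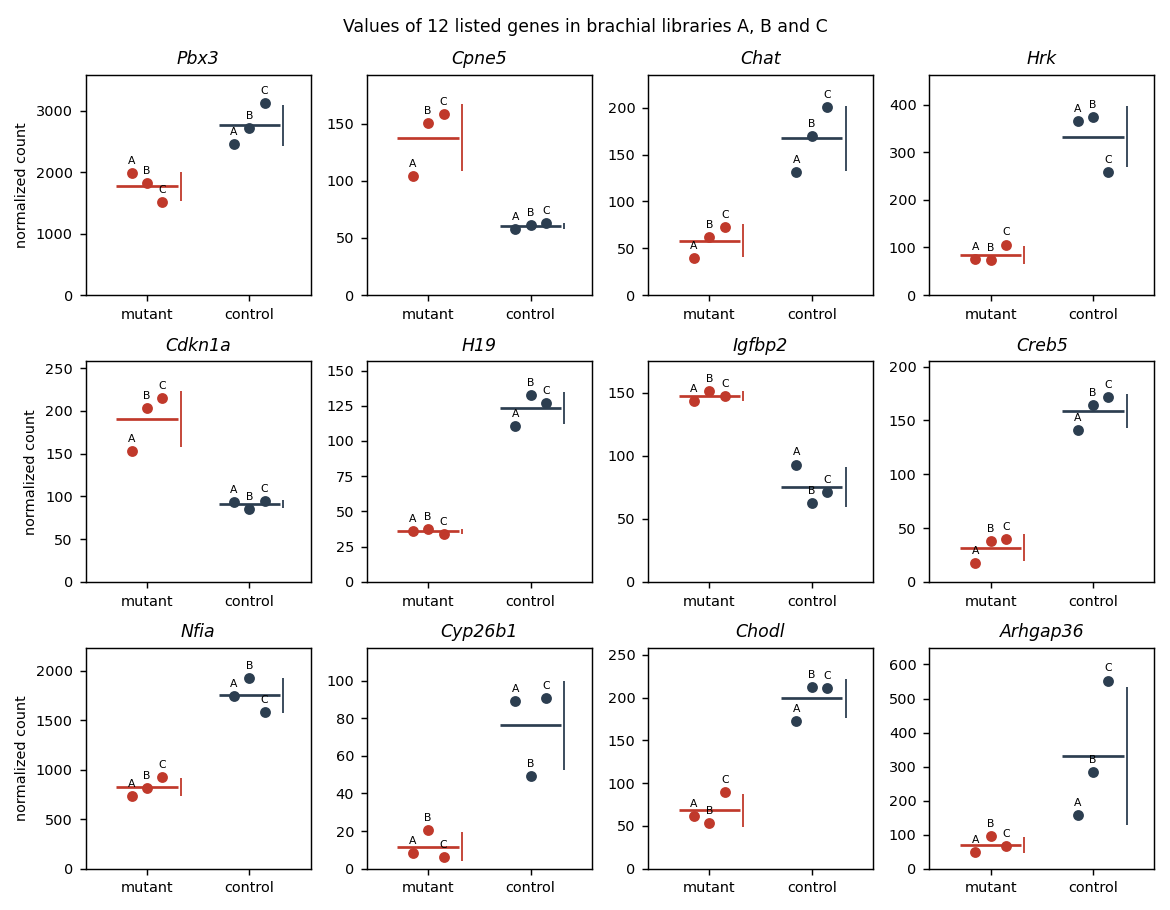
Normalized counts of 12 listed genes in the 3 mutant (left) and 3 control (right) brachial libraries, with the mean as a horizontal line and ± 1 SD as the vertical bar beside it. Mutant and control points are separate in all 12 panels, as they are for 96.8% of the whole list, which was selected on these libraries. Mutants lie above controls only for Cpne5, Cdkn1a and Igfbp2.

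All 11 transcription factors and cofactors on the list fell in mutant motor neurons, with a median log2 difference of -0.88, where 82.3% of the whole list fell. Relative to the median listed gene 4 of the 11 turned positive (Nr2f2, Zeb2, St18 and Prox1). Creb5, a bZIP factor that binds cyclic AMP response elements, had 17.2, 38.2 and 40.1 normalized counts in mutant libraries, against 141, 164 and 172 in control libraries. The lowest control value was several times the highest mutant value, a log2 difference of -2.39 (SE 0.30, adjusted p = 0.000657). Nfia, a nuclear factor I protein, had 739, 812 and 923 normalized counts in mutant libraries, against 1746, 1927 and 1578 in control libraries, a log2 difference of -1.09 (SE 0.14, adjusted p = 0.000657). Its mean was 2.12-fold lower in the mutant, with no overlap between libraries. Nfia and Creb5 kept their calls relative to the median listed gene, as did the 2 factors Ebf2 and Ldb2.

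Of 14 genes in the list of median and hypaxial columns used here, 4 were on the brachial list, among them Ebf2, Mecom and Nr2f2. All 4 fell, as did 82.3% of the whole list. Ebf2, a COE family factor of motor neurons, differed by -0.88 (SE 0.12). Mecom, a zinc finger factor that marks median column motor neurons, differed by -0.82 (SE 0.18). The other factors follow. Ldb2, a cofactor of LIM homeodomain proteins, differed by -0.95 (SE 0.14) and Hlf, a PAR bZIP factor, by -0.91 (SE 0.19). Zeb2, a repressor with zinc fingers and a homeodomain, differed by -0.41 (SE 0.13). Prox1, a prospero homeodomain factor, differed by -0.40 (SE 0.14) and St18, a Myt family zinc finger factor, by -0.39 (SE 0.13). Nr2f2, which encodes the orphan receptor COUP-TFII, differed by -0.52 (SE 0.19), and its groups overlapped. Single libraries decided 4 of these calls. Nr2f2 lost its call without mutant A or C or control B or C, where its log2 difference was between -0.51 and -0.40. Prox1 lost its call without mutant A, B or C or control A or B, where its log2 difference was between -0.44 and -0.31. St18 did not pass without mutant C or control B, with a log2 difference between -0.42 and -0.38 there. Zeb2 did not pass without mutant B or control B, with a log2 difference between -0.34 and -0.32 there. None of the 39 Hox genes looked for was on the brachial list, and their levels in this comparison were not analysed here.

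Genes of the cholinergic transmitter system and of mature motor axons also fell, 5 of 5, with a median of -0.90, where 82.3% of the whole list fell. Relative to the median listed gene all 5 differences stayed negative, but 4 of the 5 lost their call and Chat alone kept its own. Chat, which encodes the enzyme that makes acetylcholine, had 39.2, 62.4 and 73.1 normalized counts in mutant libraries, against 132, 170.2 and 201 in control libraries. Its mean was 2.88-fold lower in the mutant, a log2 difference of -1.54 (SE 0.25, adjusted p = 0.00136), and no mutant library reached a control library. Sncg, gamma-synuclein, which is found in peripheral axons, had 111, 144 and 130.2 normalized counts in mutant libraries, against 219, 299.6 and 226 in control libraries, a log2 difference of -0.94 (SE 0.17, adjusted p = 0.00197). Its groups were likewise apart. Chrnb4, the beta 4 subunit of nicotinic acetylcholine receptors, differed by -0.90 (SE 0.18). Prph, the peripherin intermediate filament of peripheral axons, differed by -0.69 (SE 0.19). Slc5a7, the transporter that brings choline back into nerve endings, differed by -0.59 (SE 0.21), with overlapping groups. Slc5a7 lost its call without mutant A or B or control B or C, where its log2 difference was between -0.53 and -0.47. Of fixed lists of 21 general motor neuron genes and 17 cholinergic genes, 4 and 3 were on the brachial list, all lower in the mutant. Both counts include Chat and Slc5a7, and over the whole list 51 of 62 genes passed and were lower (82.3%).

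Markers of other cells give little to check on this list. Of the 10 motor neuron markers fixed for this purpose, Chat, Prph and Slc5a7 were listed and well above 0 in every library of both groups. Of the markers of spinal interneurons (25), progenitors and glia (18), dorsal root ganglion and neural crest (12), mesenchyme and muscle (16) and blood and endothelium (15), none was listed, and their levels were not analysed here. Nfia and Prox1 are also made by other spinal cells, among them glial progenitors for Nfia and interneurons for Prox1, and the part such cells have in these differences was not tested.

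**Figure D3:**
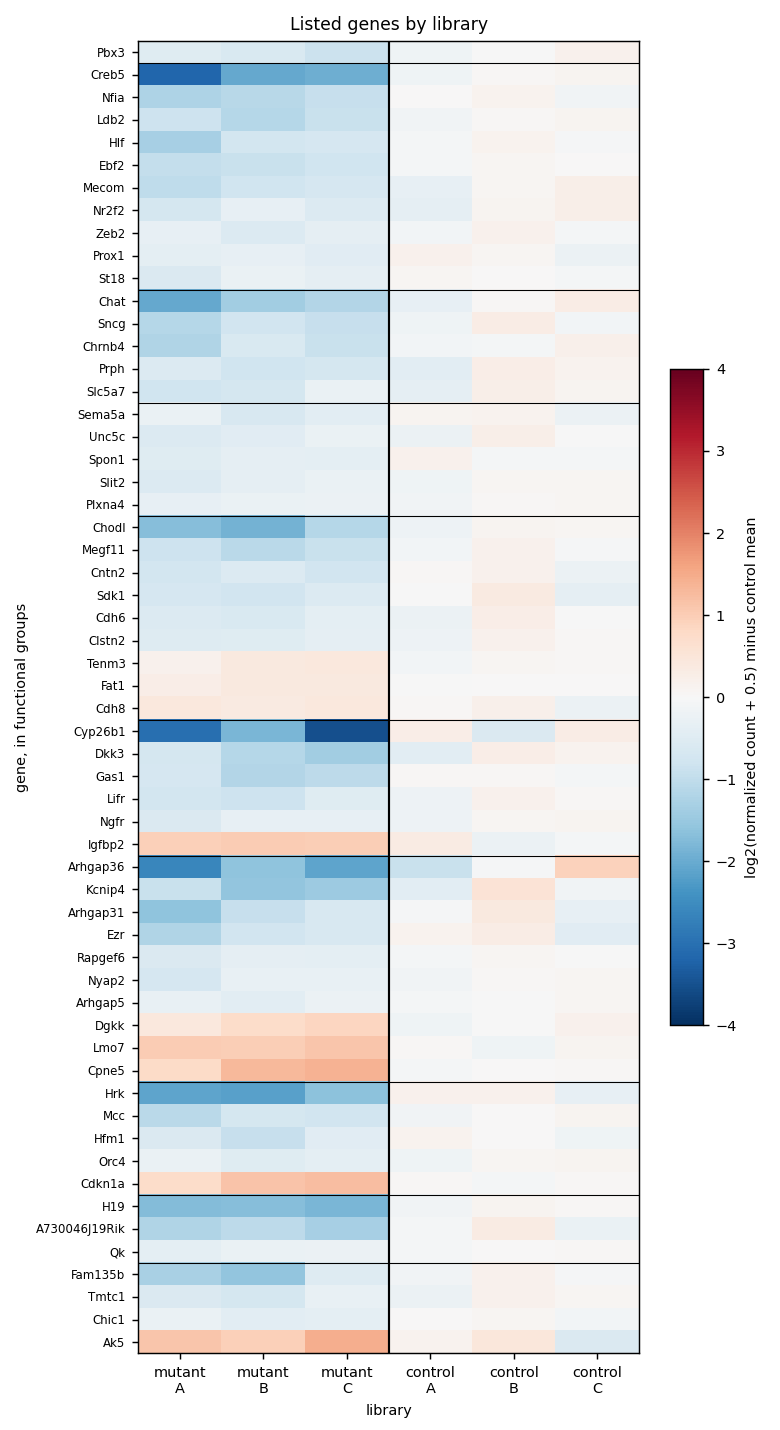
Each row is 1 of 58 genes and each column 1 library, mutants left and controls right, with the colour giving log2(normalized count + 0.5) minus the control mean of that gene. The 3 mutant columns share the direction of change for nearly every gene, and the strongest blue cells are Cyp26b1, Creb5 and Arhgap36.

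Secreted signals, receptors and their modulators numbered 7, of which 6 fell and 1 rose, with a median of -0.92. Over the whole list 82.3% fell. Ngfr turned positive relative to the median listed gene. Cyp26b1, the enzyme that breaks down retinoic acid, had 8.6, 20.5 and 6.01 normalized counts in mutant libraries, against 89.1, 49.1 and 90.6 in control libraries. These were the lowest mutant values on the list and rest on few reads, 37 in the mutant and 223 in the control in all, counting 1 step as 1 read. The groups did not overlap, and a log2 difference of -2.78 (SE 0.43, adjusted p = 0.00102) was the largest change of the comparison. It was the 1 gene of a fixed list of 19 retinoid pathway genes that appeared here, and no gene of retinoic acid synthesis was listed. Dkk3, a secreted protein of the dickkopf family, had 58.3, 42.8 and 36.1 normalized counts in mutant libraries, against 69.9, 115 and 105 in control libraries, a log2 difference of -1.07 (SE 0.24, adjusted p = 0.00532). Igfbp2, which binds insulin-like growth factors, went the other way with 143, 152 and 147 normalized counts in mutant libraries, against 93.2, 62.6 and 71.0 in control libraries. All 3 mutant libraries lay above all 3 control libraries, a log2 difference of 0.98 (SE 0.16, adjusted p = 0.00137).

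Further members of this group were lower. Gas1, a co-receptor for hedgehog ligands, differed by -0.96 (SE 0.15). Lifr, the receptor for leukaemia inhibitory factor, a survival factor of motor neurons, differed by -0.69 (SE 0.15). Ngfr, the p75 receptor for neurotrophins, differed by -0.41 (SE 0.14). Ngfr lost its call without mutant A or B or control B or C, where its log2 difference was between -0.45 and -0.34. Cyp26b1 and Igfbp2 were the members that passed relative to the median listed gene.

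Genes that act in cell death, the cell cycle and genome maintenance numbered 5, with a median of -0.65, and held an opposed pair. Hrk, a BH3-only protein that promotes apoptosis, had 75.5, 72.6 and 106 normalized counts in mutant libraries, against 367, 374 and 259 in control libraries. Its highest mutant value was well under its lowest control value, a log2 difference of -1.97 (SE 0.21, adjusted p = 0.000424). Cdkn1a, the cyclin-dependent kinase inhibitor p21, had 153, 203 and 215 normalized counts in mutant libraries, against 93.2, 85.6 and 94.7 in control libraries, so that it was 2.09-fold higher by the means, a log2 difference of 1.04 (SE 0.16, adjusted p = 0.00101). Hrk fell and Cdkn1a rose without overlap, and both kept their calls relative to the median listed gene. They are the 2 genes on the brachial list out of 27 fixed genes of cell death and cell cycle brakes, and the other members of that list were not analysed here.

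Mcc, named for its mutation in colorectal cancers, differed by -0.85 (SE 0.15) and Hfm1, a DNA helicase known from meiosis, by -0.65 (SE 0.16). Orc4, a subunit of the origin recognition complex, differed by -0.38 (SE 0.13). In all, 4 of the 5 genes fell, where 82.3% of the whole list fell, and Orc4 turned positive relative to the median listed gene. Orc4 lost its call without mutant B or C or control B or C, where its log2 difference was between -0.37 and -0.33. Exons of Orc4 overlap those of Acvr2a and Mbd5 on the other strand.

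The RNA genes and RNA-acting proteins were 3 lower and 1 higher, with a median of -0.75, where 82.3% of the whole list fell. H19, an imprinted non-coding RNA that lies beside the insulin-like growth factor gene Igf2, had 36.3, 37.2 and 34.1 normalized counts in mutant libraries, against 110.4, 133 and 127 in control libraries. Both groups were tight and far apart, 3.43-fold lower in the mutant by the means, a log2 difference of -1.76 (SE 0.13, adjusted p = 4.97e-05). A730046J19Rik, a non-coding RNA, had 143, 158 and 132 normalized counts in mutant libraries, against 314, 411 and 277 in control libraries, a log2 difference of -1.19 (SE 0.17, adjusted p = 0.000903). In A730046J19Rik the groups were also separate. Qk, the RNA-binding protein quaking, differed by -0.30 (SE 0.12), and turned positive relative to the median listed gene. Qk lost its call without mutant A, B or C or control B or C, where its log2 difference was between -0.34 and -0.26. Of a fixed list of 14 genes of the insulin-like growth factor axis, 2 were present, H19 lower and Igfbp2 higher.

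Adhesion molecules were mixed, with 6 of 9 lower and 3 higher and a median of -0.52, where 82.3% of the whole list fell. Chodl, a C-type lectin-like membrane protein that marks fast motor neurons, had 61.2, 53.1 and 90.2 normalized counts in mutant libraries, against 173, 213 and 211 in control libraries, a log2 difference of -1.57 (SE 0.21, adjusted p = 0.000657). It was the 1 gene present of 23 fixed genes of the lateral motor column and limb pools. Megf11, a membrane protein with many EGF-like domains, had 495, 421 and 472 normalized counts in mutant libraries, against 822, 991 and 848 in control libraries, a log2 difference of -0.94 (SE 0.13, adjusted p = 0.000903). In both, every mutant library was below every control library, and both passed relative to the median listed gene.

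The adhesion genes that rose did so by less. Cdh8, a type II cadherin, had 780.1, 746 and 781 normalized counts in mutant libraries, against 598, 669 and 494 in control libraries, a log2 difference of 0.40 (SE 0.14, adjusted p = 0.0265). Fat1, an atypical cadherin, had 1867, 2073 and 2074 normalized counts in mutant libraries, against 1537, 1587 and 1578 in control libraries, a log2 difference of 0.35 (SE 0.11, adjusted p = 0.0218). Tenm3, a teneurin that binds latrophilins and other teneurins, had 1238, 1436 and 1471 normalized counts in mutant libraries, against 1016, 1149 and 1135 in control libraries, a log2 difference of 0.33 (SE 0.13, adjusted p = 0.0363). In each of the 3 the groups were separate, with the lowest mutant library not far above the highest control library. Cntn2, the axonal glycoprotein TAG-1, differed by -0.68 (SE 0.15) and Sdk1, an immunoglobulin adhesion molecule, by -0.67 (SE 0.19). Cdh6, another type II cadherin, differed by -0.52 (SE 0.16) and Clstn2, a calsyntenin of the postsynaptic membrane, by -0.45 (SE 0.14). Cdh6 and Clstn2 turned positive relative to the median listed gene, and Chodl, Megf11, Cntn2 and Sdk1 stayed negative there. Of these, Chodl and Megf11 kept their calls on that scale, while Cntn2 and Sdk1 lost theirs. The list of 44 cadherins, contactins, teneurins and their relatives had 5 genes here, 2 lower and 3 higher. Cdh6 lost its call without mutant B or control B, where its log2 difference was between -0.47 and -0.39. Cdh8 lost its call without mutant A, B or C or control C, where its log2 difference was between 0.28 and 0.42. Clstn2 did not pass without mutant B or control B or C, with a log2 difference between -0.44 and -0.37 there. Fat1 did not pass without mutant B or C or control B or C, with a log2 difference between 0.33 and 0.36 there. Tenm3 did not pass without mutant B or C or control A, B or C, with a log2 difference between 0.27 and 0.36 there.

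The 5 axon guidance genes all fell, where 82.3% of the whole list fell. Their falls were small and alike, between -0.45 and -0.28 on the log2 scale with a median of -0.42. All 5 turned positive relative to the median listed gene, so their direction depends on the scale. Sema5a, a transmembrane semaphorin, had 917, 710.2 and 827 normalized counts in mutant libraries, against 1188, 1222 and 949 in control libraries, a log2 difference of -0.45 (SE 0.16, adjusted p = 0.0263). Unc5c, a netrin receptor that mediates repulsion, had 629, 683 and 773 normalized counts in mutant libraries, against 788, 1094 and 923 in control libraries, a log2 difference of -0.42 (SE 0.16, adjusted p = 0.0321). For both the groups were apart, with the highest mutant value close to the lowest control value. Spon1, the matrix protein F-spondin, differed by -0.42 (SE 0.13). Slit2, a repellent ligand of Robo receptors that motor neurons make, differed by -0.40 (SE 0.14). Plxna4, a semaphorin receptor, differed by -0.28 (SE 0.12), with an adjusted p just under the threshold, and did not pass with a pseudocount of 2. Plxna4 lost its call without mutant A, B or C or control B or C, where its log2 difference was between -0.29 and -0.23. Sema5a lost its call without mutant B or control A or B, where its log2 difference was between -0.40 and -0.35. Slit2 did not pass without mutant A or B or control B or C, with a log2 difference between -0.41 and -0.31 there. Unc5c did not pass without mutant A or B or control B or C, with a log2 difference between -0.42 and -0.30 there. Of 44 fixed axon guidance genes, 4 were present, which are these without Spon1.

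Of the 10 regulators of GTPases, kinase signalling and the cytoskeleton, 7 fell and 3 rose, with a median of -0.44. Of the whole list 82.3% fell. Arhgap36, of a family of GTPase activating proteins, had 47.8, 95.9 and 67.1 normalized counts in mutant libraries, against 158, 284 and 553 in control libraries. Control library C held far more than control library A, so the size of the change is loosely fixed, a log2 difference of -2.10 (SE 0.44, adjusted p = 0.00438). In the authors' deposited table its adjusted p was 0.0908, the 1 value over 0.05 there. Kcnip4, a calcium sensor that binds potassium channels of the Kv4 type, had 50.7, 31.6 and 34.1 normalized counts in mutant libraries, against 70.9, 139 and 86.5 in control libraries, a log2 difference of -1.31 (SE 0.28, adjusted p = 0.00438). Its groups did not overlap. It was the 1 gene present of 49 fixed ion channels and subunits.

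The 3 genes that rose in this group were Cpne5, Lmo7 and Dgkk, all kept relative to the median listed gene. Cpne5, a copine that binds phospholipids in the presence of calcium, had 104, 151 and 158 normalized counts in mutant libraries, against 57.7, 61.6 and 62.8 in control libraries, a log2 difference of 1.15 (SE 0.18, adjusted p = 0.00102). Lmo7, a protein with LIM and PDZ domains, had 147, 144 and 157 normalized counts in mutant libraries, against 74.95, 64.7 and 79.3 in control libraries, a log2 difference of 1.03 (SE 0.13, adjusted p = 0.000657). Dgkk, a diacylglycerol kinase, had 216, 269.9 and 294 normalized counts in mutant libraries, against 144, 159.7 and 183 in control libraries, a log2 difference of 0.67 (SE 0.16, adjusted p = 0.00646). In each, all mutant libraries exceeded all control libraries. The remaining members were lower. Arhgap31, which inactivates Rac and Cdc42, differed by -1.06 (SE 0.28) and Ezr, ezrin, which ties actin to the membrane, by -0.87 (SE 0.23). Rapgef6, an exchange factor of Rap GTPases, differed by -0.44 (SE 0.12). Nyap2, an adaptor of phosphoinositide 3-kinase in neurons, differed by -0.43 (SE 0.15) and Arhgap5, another GTPase activating protein, by -0.32 (SE 0.12). Rapgef6, Nyap2 and Arhgap5 turned positive relative to the median listed gene. Arhgap5 lost its call without mutant B or C or control B or C, where its log2 difference was between -0.36 and -0.27. Nyap2 lost its call without mutant A or control B or C, where its log2 difference was between -0.40 and -0.30. Rapgef6 did not pass without control B, with a log2 difference of -0.40 there.

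The last 4 genes are an adenylate kinase and less studied proteins. They were 3 lower and 1 higher with a median of -0.44, where 82.3% of the whole list fell. Ak5, an adenylate kinase found in brain, had 73.6, 66.1 and 95.2 normalized counts in mutant libraries, against 37.5, 47.0 and 22.6 in control libraries, a log2 difference of 1.17 (SE 0.27, adjusted p = 0.00582). It was the largest rise of the comparison, with its lowest mutant library above its highest control library. Exons of Ak5 overlap those of Zzz3 on the other strand. Fam135b had 72.7, 59.6 and 124 normalized counts in mutant libraries, against 162, 200.4 and 174 in control libraries, a log2 difference of -1.13 (SE 0.26, adjusted p = 0.00582). Mutant library C was nearest to the controls without reaching them. Tmtc1, an O-mannosyltransferase of the endoplasmic reticulum, differed by -0.54 (SE 0.16) and Chic1 by -0.35 (SE 0.12), and both turned positive relative to the median listed gene. Chic1 lost its call without mutant B or C or control B, where its log2 difference was between -0.33 and -0.31. Tmtc1 did not pass without mutant B or control B, with a log2 difference between -0.46 and -0.45 there.

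Promoter sequence is shown for 3 of the genes that fell, to let the letters that Pbx and its partners are known to prefer be seen in place. The letters searched, on both strands of the 250 bases before the transcript start, were TGATNNAT, the form recognised by Pbx with a Hox partner, and TGACAG, the form recognised by Meis and Prep proteins. Windows came from RefSeq on GRCm38.p6, where 45 of the 62 genes matched. Capitals mark the matches, and each window is written 5′ to 3′ on the strand of the gene, the minus strand in all 3. Kcnip4, at chr5:49285660-49285909, holds TGATNNAT with its first base at -82 from the start and TGACAG, on the other strand, at -113. Mecom, at chr3:30509760-30510009, holds TGATNNAT at -31. Sncg, at chr14:34374670-34374919, holds TGATNNAT at -216. Kcnip4 and Mecom each have another window, which is not shown. That of Kcnip4, at chr5:48599683-48599932, holds neither form. That of Mecom, at chr3:30013205-30013454, holds TGACAG at -86 and no TGATNNAT.
Kcnip4: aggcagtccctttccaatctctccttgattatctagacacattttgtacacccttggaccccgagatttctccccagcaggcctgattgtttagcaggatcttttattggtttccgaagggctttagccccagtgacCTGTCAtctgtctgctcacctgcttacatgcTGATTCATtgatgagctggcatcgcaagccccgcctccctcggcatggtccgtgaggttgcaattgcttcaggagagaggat
Mecom: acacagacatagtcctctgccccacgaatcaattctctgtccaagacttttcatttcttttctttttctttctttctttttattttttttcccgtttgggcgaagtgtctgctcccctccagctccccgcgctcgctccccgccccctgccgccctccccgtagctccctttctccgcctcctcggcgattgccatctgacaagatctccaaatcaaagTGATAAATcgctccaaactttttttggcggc
Sncg: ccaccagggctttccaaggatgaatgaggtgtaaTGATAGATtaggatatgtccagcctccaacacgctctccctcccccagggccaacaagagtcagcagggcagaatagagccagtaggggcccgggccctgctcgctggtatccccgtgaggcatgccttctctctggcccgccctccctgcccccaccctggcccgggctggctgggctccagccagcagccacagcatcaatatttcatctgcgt
TGATNNAT was also found before Fat1, Lifr and Nyap2, which makes 6 of 45 genes (13.3%), against 2380 of 27025 genes of the whole table (8.81%). TGACAG was found before 9 of 45 genes (20.0%), against 4851 of 27025 (17.95%). Some genes have several windows, which raises a share counted by gene. Counted by window, TGATNNAT was in 10.2% of 59 listed windows and 7.68% of all 32851. TGACAG was in 15.3% of the listed and 15.9% of all windows, so the listed share was not the higher one. The genes that passed and were lower held TGATNNAT in 5 of 37 cases (13.5%), close to the 13.3% of all listed genes. Those that passed and were higher held it in 1 of 8 cases. A link between these letters and the direction of change was not tested. A match is a description of these letters and not of binding, and a window without a match says nothing of the rest of the gene.

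The genes shared with the thoracic level had the same direction there. Of the 62 brachial genes, 30 were also on the thoracic mutant list (48.4% of the brachial and 23.1% of the thoracic list), 26 lower and 4 higher at both levels. The thoracic groups had the same genotypes, sort and age, with 3 libraries each, and of the 130 thoracic genes 123 passed (94.6%), 98 of them lower (75.4%). Each list was selected by the authors on its own libraries, so the shared direction is partly fixed by that choice. Of the 30 shared genes, 27 passed at both levels. The difference between levels was tested by a limma interaction over 12 libraries, which called 0 of the 30 genes (0%). No gene had an unadjusted p under 0.05 either, and the smallest was 0.0950, for H19. The intervals were wide, and the 95% interval of a gene had a half-width of 0.55 at the median and up to 1.34 on the log2 scale.

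Creb5 differed by -2.39 (SE 0.30) at the brachial and -2.47 (SE 0.31) at the thoracic level. Cyp26b1 differed by -2.78 (SE 0.43) and -2.30 (SE 0.20) in that order of levels, and Hrk by -1.97 (SE 0.21) and -1.61 (SE 0.23). Pbx3 was lower by a near equal amount at both levels, -0.65 (SE 0.15) at the brachial and -0.59 (SE 0.16) at the thoracic level, an interaction of -0.06 (SE 0.21, 95% half-width 0.45). Arhgap36 was further down at the brachial level, -2.10 (SE 0.44) against -1.28 (SE 0.31) at the thoracic level, and H19 likewise, -1.76 (SE 0.13) against -1.24 (SE 0.25). The interaction was -0.82 (SE 0.61, 95% half-width 1.34) for Arhgap36 and -0.52 (SE 0.29, 95% half-width 0.63) for H19, which did not pass. Kcnip4 and Fam135b were further down at the thoracic level, -1.81 (SE 0.23) and -1.66 (SE 0.26) there, with interactions of 0.50 (SE 0.39, 95% half-width 0.86) and 0.54 (SE 0.40, 95% half-width 0.88). Cpne5, Cdkn1a and Fat1 were among the genes higher at both levels, although the thoracic difference of Fat1 was short of the threshold, at 0.28 (SE 0.14). Rapgef6, at -0.32 (SE 0.14), and Arhgap5, at -0.30 (SE 0.14), did not pass there either.

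**Figure D4:**
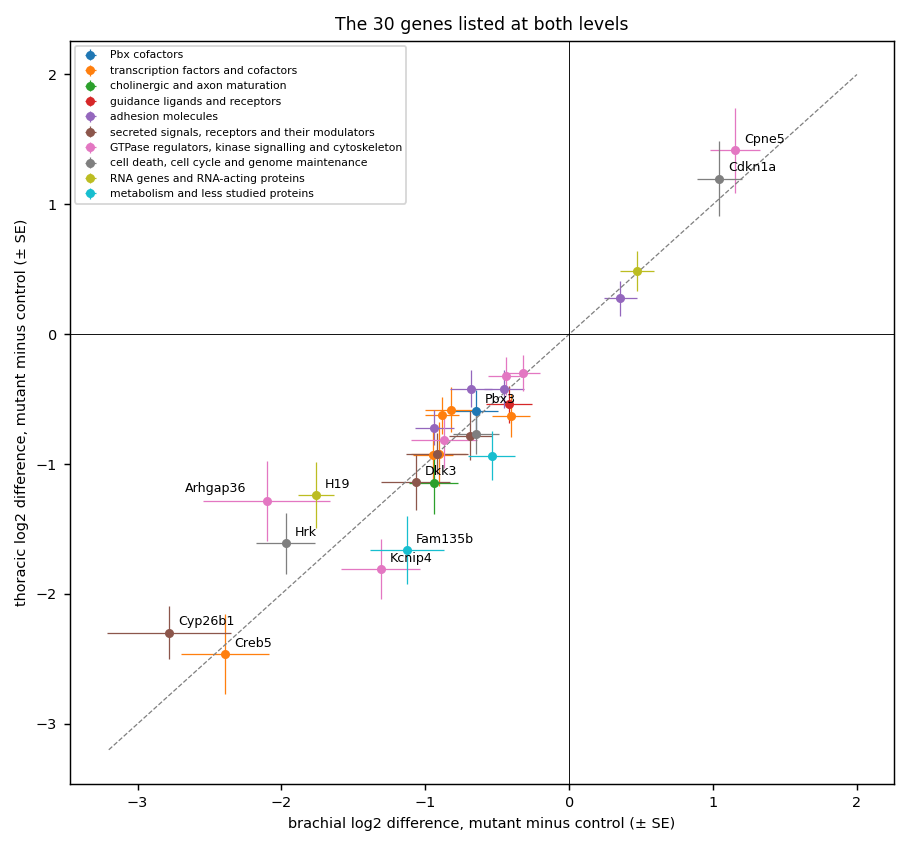
The 30 genes listed at both levels, with the brachial log2 difference (mutant minus control) on the horizontal and the thoracic one on the vertical axis, ± 1 SE, n = 3 libraries per group and level, and a dashed line of equality. All 30 points lie in the lower left or upper right of the plot, and Arhgap36, H19, Kcnip4 and Fam135b are among the points farthest from the line.

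Shared genes came from every functional group, with 30 of 62 (48.4%) shared over the list. As a description with no test, they held 6 of 11 transcription factors, 6 of 10 signalling and cytoskeletal regulators, 4 of 7 secreted signals and receptors, 4 of 9 adhesion molecules, 3 of 5 genes of cell death and the cell cycle, 2 of 4 RNA genes and RNA-acting proteins and 2 of 4 metabolic and less studied genes. They also held 1 of 5 cholinergic and axonal genes (Sncg), 1 of 5 guidance genes (Unc5c) and Pbx3. The 32 genes on the brachial list alone, 26 lower and 6 higher in the mutant, hold Chat, Chrnb4, Prph and Slc5a7, the factors Nfia, Nr2f2, Prox1 and St18, and Chodl, Gas1 and Igfbp2. For these genes the thoracic difference was not analysed here, so they are not shown to be brachial in their response.

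**Figure D5:**
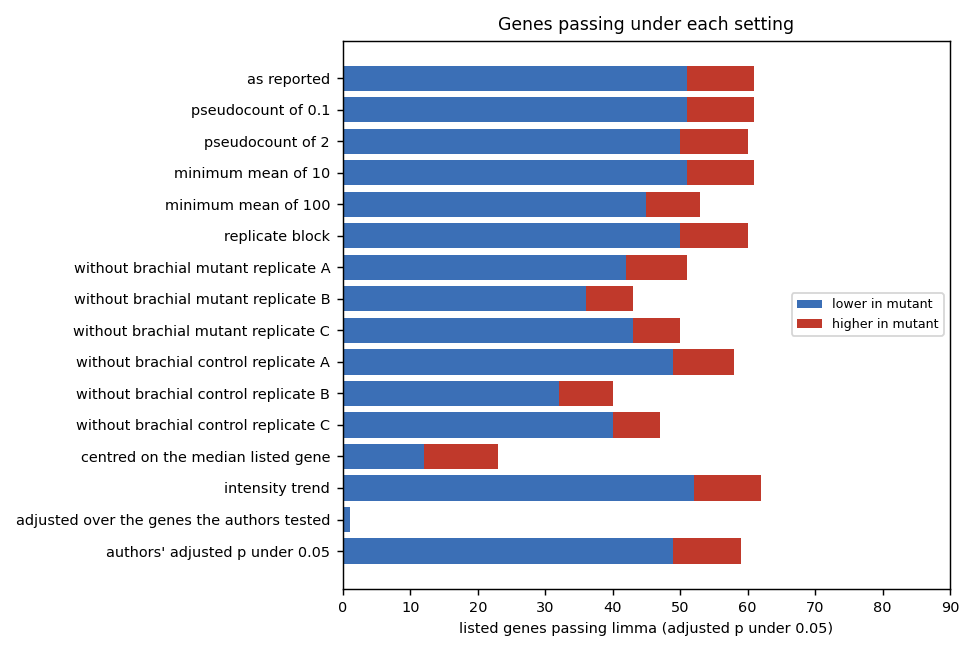
Number of listed genes that passed limma in the brachial comparison under each setting, split into those lower and those higher in the mutant. The bar is 61 genes as reported and at its lowest 1 gene, when p-values are adjusted over the 11847 genes the authors tested.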

How the data were processed

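RNA sequencing of sorted brachial motor neurons was analysed in 3 mutant and 3 control libraries, with 6 thoracic libraries for genes listed at both levels. The cDNA had been amplified before libraries were made, per the labels' protocols. The submitters' processing notes name DESeq2 1.12.3, HTSeq 0.6.1p1, Picard 1.88, Bowtie 1.0.0 and the builds mm9 and NCBIM37, and no source used here gives their settings. The authors deposited the per-library values as a normalized signal, headed CPM, in which each nonzero value of a library is a whole multiple of 1 step within a tolerance of 1e-06. Log2 fold changes, test scores and p-values were also deposited by the authors. In the authors' deposited table the log2 fold changes appear shrunken (-0.53 for Cyp26b1, against -2.78 from the values), so differences were recomputed. Each table was scaled separately by the authors, and differences were taken within a table.

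Values were fitted as log2(value + 0.5), with no filter on low values, with limma 3.58.1 in R 4.3.3, adjusted over the 62 genes at a threshold of 0.05. The planned test assumed CPM and was kept for this unit. The depth of whole libraries is unknown. The fits were tested on simulated data in which most genes did not differ in the term tested. The listed genes were selected for a difference, so the simulation checks the code and not the calls made here. No library was counted as a duplicate, since 2 replicates always differed beyond counting noise (chi-square over degrees of freedom at least 3.81). The comparison and the gene lists were chosen with earlier results of these data known, and the 10 functional groups were assigned by hand from textbook roles once the gene names were seen. By rule each gene is named with its difference and SE, and per-library values are given for Pbx3, the 12 largest falls, the rises and the 2 largest differences of each group. Some listed genes are counted but not reported by name. All 62 gene identifiers matched a reference name. Gene order and overlap came from GENCODE on GRCm38. Alternatives were pseudocounts of 0.1 and 2, minimum means of 10 and 100, leaving out each library, the replicate letter as a block, an intensity trend, centring on the median listed gene, adjustment over 11847 genes and the authors' adjusted p. Other steps used Python 3.11.15 with pandas 2.3.3, matplotlib 3.10.9, scipy 1.17.1 and numpy 2.4.6.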

Additional observations from a re-analysis of the deposited data

How the results depend on the processing

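The list was chosen on these libraries, so no setting tests it afresh. As reported, 61 genes passed, 10 higher and 51 lower, with a median of -0.62. Leaving out each library in turn gave 40 to 58 passing genes, 7 to 9 higher and 32 to 49 lower, with a median between -0.66 and -0.48, and 22 genes lost a call at least once, while none changed direction. The lowest counts came without control library B (40 passing, 32 lower, median -0.48). Adjusted over 11847 genes, 1 gene passed, 0 higher and 1 lower. Centred on the median listed gene, 23 passed, 11 higher and 12 lower, and the median was -0.055. A minimum mean of 100 left 54 genes, of which 53 passed, and a median of -0.53, since 8 low genes with mostly large differences were left out. A minimum mean of 10 removed none. With an intensity trend all 62 passed, and with a pseudocount of 2, 60. Of the 61 genes with an authors' adjusted p under 0.05, 59 passed.

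Between mutant and control libraries of the same letter, deviations from the group means correlated at 0.10 for A, -0.49 for B and -0.24 for C. Across letters they correlated at 0.41 for mutant C with control B and 0.40 for mutant B with control C. The remaining pairs of different letters were between -0.15 and 0.07. With 3 libraries per group these correlations depend on each other, so they cannot decide whether a letter pairs the libraries. With the letter as a replicate block, 60 genes passed, 10 higher and 50 lower, and Orc4 lost its call. The block called 0 genes in the test between levels, as did every other alternative there. In that test the block was set within each level, so a pairing of the same letter across levels was not tested. Leaving aside the adjustment over 11847 genes, 19 genes passed in every setting that included them, 12 lower and 7 higher, and 39 did when centring is left aside too. Some of these, such as Cyp26b1, Creb5, H19, Cpne5 and Ak5, were not in the fit with a minimum mean of 100, and Arhgap36 was not among the genes with an authors' adjusted p under 0.05.

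Centring turned 19 genes reported here positive. Each was lower by less than the median shift of 0.56 that centring adds to every difference. Which scale is the neutral one was not tested. Their centred log2 differences were Tmtc1 0.023, Cdh6 0.039, Nr2f2 0.040, Clstn2 0.11, Sema5a 0.11, Rapgef6 0.12, Nyap2 0.13, Unc5c 0.14, Ngfr 0.15, Spon1 0.15, Prox1 0.16, Zeb2 0.16, Slit2 0.17, St18 0.17, Orc4 0.19, Chic1 0.21, Arhgap5 0.24, Qk 0.26 and Plxna4 0.29. The 2 planned tests with count models were not run, because the deposited values could not be accepted as whole read counts. Depth limits Cyp26b1 most, and counts of 22 genes whose exons overlap another gene are uncertain.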

Other observations

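Several listed genes lie near each other in gene order, and distances in bases were not analysed. In the GENCODE gene order on GRCm38, Cdkn1a and Cpne5 on chromosome 17 have 1 protein-coding gene between them, Rab44, and both rose, by 1.04 and 1.15 on the log2 scale. Slit2 and Kcnip4 on chromosome 5 have 5730480H06Rik between them in that order, and its exons overlap those of Kcnip4 on the other strand. Both fell, with differences of -0.40 and -1.31. Zeb2 and Orc4 on chromosome 2 have Acvr2a between them in that order, and its exons overlap those of Orc4. They are not close in bases, with windows at chr2:45110278-45110527 for Zeb2 and chr2:48949268-48949517 for Orc4. Both fell, with differences of -0.41 and -0.38, where 82.3% of the whole list fell. Slit2, Zeb2 and Orc4 turn positive relative to the median listed gene. The 62 genes lie on 18 chromosomes.

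Overlapping transcription units are common on the list. Exons of 22 of the 62 genes overlap another annotated gene, 21 of them on the opposite strand. Among these are the pairs Mecom and Mecomos, Prox1 and Prox1os, Zeb2 and Zeb2os, and Ezr and Sytl3.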
